A study of Mus musculus with 18 samples.

Results

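The 10 genes described here mark T cells and natural killer (NK) cells: Cd3e, Cd3g, Cd8a, Cd8b1, Cd2, Gzma, Gzmb, Nkg7, Ccl5 and Cxcr6. They were found by symbol among the 53819 gene entries of the deposited count tables, and all 10 were present in each of the 18 tables. A low-count filter left 18618 genes to test, with 9 of the 10 among them. Cd8b1 did not pass the filter and is described by its values only.

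The tissue was the caput epididymis, the head of the duct in which sperm mature, of C57BL/6J mice, and bulk RNA of the whole caput was sequenced. After cessation of treatment there were 3 libraries of 10% ethanol (EtOH), 3 of 6% EtOH and 3 of controls. At 10 weeks of treatment there were likewise 3 libraries of 10% EtOH, 3 of 6% EtOH and 3 of controls. All mice carried the same genotype label, and no transgene is named. The series title gives the cessation as 1 month. No age, ethanol route or control vehicle is given in the sources used here. Nor is it stated whether samples shared a litter, cage or day, so p-values measure the spread between these libraries, which may be technical in part.

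T cells recognise antigen with a receptor that signals through the CD3 chains, and cytotoxic T cells add the CD8 coreceptor. Cytotoxic T cells and NK cells kill by releasing granules with granzymes, and they secrete and follow chemokines. In the epididymis, lymphocytes lie within and beneath the epithelium beside a dense network of macrophages, in an organ that tolerates sperm antigens.

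Library totals were 10.7M to 17.2M counts after cessation and 15.6M to 21.1M at 10 weeks. Levels are given as CPM, a gene's counts divided by the size of its library, with libraries scaled to each other by the trimmed mean of M-values (TMM). A count of 3 was worth 0.151 to 0.283 CPM, which is the level below which a library at 0 cannot be told from a low one. Between 71.3% and 75.5% of the counts from 1 to 20 in each library were even numbers, so the mates of a pair may have been counted one by one. The counting error is then larger than the counts imply, and the level given for a library at 0 is higher. The caput was present by its own gene: Gpx5, a secreted glutathione peroxidase of the caput, had 10000 to 30300 CPM per kilobase of exon over the 18 libraries. Identifiers raised a doubt for 10% EtOH 10 weeks replicate 3, whose identifier is of another kind than those of its group, and for 6% EtOH cessation replicate 1, whose label and count table carry different ones. Control cessation replicate 3 and 6% EtOH cessation replicate 1 also stood apart by low caput epithelial genes, with summed levels of 33500 and 34100 CPM over 11 genes, where the other 16 libraries had 60600 to 112000 CPM.

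All 10 genes were expressed at a low level, and a single library stood out for every one of them. Their counts ranged from 0 to 142 per library. Control cessation replicate 1 was the highest of the 18 libraries for 10 of 10 genes, and for 9 of the 9 that were tested, while 5.18% of all tested genes were highest there. The 10 genes summed to 42.6 CPM (718 counts) in that library and to 8.69 to 15.7 CPM in the other 17, with a median of 12.3 CPM. That library gave 9.2% to 32.7% of all counts of a gene over the 18 libraries. In bulk tissue, more cells of a type and more RNA per cell cannot be told apart.

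Per kilobase of exon, the median level over the 18 libraries was highest for Cd2 (1.93 CPM per kb) and Ccl5 (1.32), followed by Gzmb (0.821), Cxcr6 (0.648), Cd3e (0.578), Gzma (0.479), Nkg7 (0.409), Cd3g (0.338), Cd8a (0.177) and Cd8b1 (0.0729). Cd3e overlaps the gene models Gm48719 on the opposite strand and Gm48720 on the same strand. Cxcr6 lies within Fyco1, a gene of the opposite strand that had 112 to 168 CPM. Without knowledge of the strand setting, reads of such partners cannot be told apart.

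The promoters of the 3 genes of the cytotoxic granule are shown because these genes encode the killing machinery and were all far above their usual level in the same library. Each is 250 bases before to 50 after the gene's start on the gene's own strand, from RefSeq on build GRCm38.p6: Gzma on the minus strand at chr13:113100932-113101231, Gzmb on the minus strand at chr14:56262285-56262584 and Nkg7 on the plus strand at chr7:43436888-43437187. Capitals mark matches, on either strand, to a gamma-activated site (GAS, TTCNNNGAA), an interferon-stimulated response element (ISRE, written here as GAAA, any 2 bases and GAAA), a Runx core (TGTGGT) or a T-box element (AGGTGTGA).
Gzma: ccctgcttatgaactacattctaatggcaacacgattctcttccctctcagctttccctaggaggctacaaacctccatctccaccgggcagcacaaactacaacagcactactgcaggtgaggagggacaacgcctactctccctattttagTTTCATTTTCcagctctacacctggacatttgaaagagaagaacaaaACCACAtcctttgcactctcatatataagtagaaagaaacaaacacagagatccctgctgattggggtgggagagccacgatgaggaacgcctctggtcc
Gzmb: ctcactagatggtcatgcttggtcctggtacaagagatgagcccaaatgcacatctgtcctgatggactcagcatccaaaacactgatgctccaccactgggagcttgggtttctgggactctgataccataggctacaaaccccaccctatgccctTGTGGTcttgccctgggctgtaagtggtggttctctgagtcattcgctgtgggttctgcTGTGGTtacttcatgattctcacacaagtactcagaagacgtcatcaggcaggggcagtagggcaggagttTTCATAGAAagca
Nkg7: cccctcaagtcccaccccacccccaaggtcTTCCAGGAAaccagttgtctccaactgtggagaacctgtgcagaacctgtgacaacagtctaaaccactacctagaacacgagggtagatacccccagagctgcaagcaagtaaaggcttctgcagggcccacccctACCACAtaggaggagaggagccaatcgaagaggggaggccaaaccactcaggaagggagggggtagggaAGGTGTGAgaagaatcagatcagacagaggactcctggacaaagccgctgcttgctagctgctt

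The Gzma promoter held an ISRE match beginning 97 bases before the start and a Runx match 50 bases before it. The Gzmb promoter held Runx matches 93 and 34 bases before the start and a GAS match 37 bases after it. In the Nkg7 promoter a GAS match began 220 bases, a Runx match 83 bases and a T-box match 14 bases before the start. No matches overlapped. Of 32851 RefSeq promoters of the same length, 8.3% held the GAS letters, 3.44% the ISRE letters, 16.8% the Runx core and 1.28% the T-box letters. RefSeq promoters were matched for 7 of the 10 genes, all but Ccl5, Cd2 and Cd8b1. Cxcr6 had a Runx match 10 bases before its start, and the windows of Cd3e, Cd3g and Cd8a held none of these letters. The cAMP response element letters (CRE, TGACGTCA) were in 0 of the 7 and in 1.79% of all. These matches describe letters only.

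**Figure D1:**
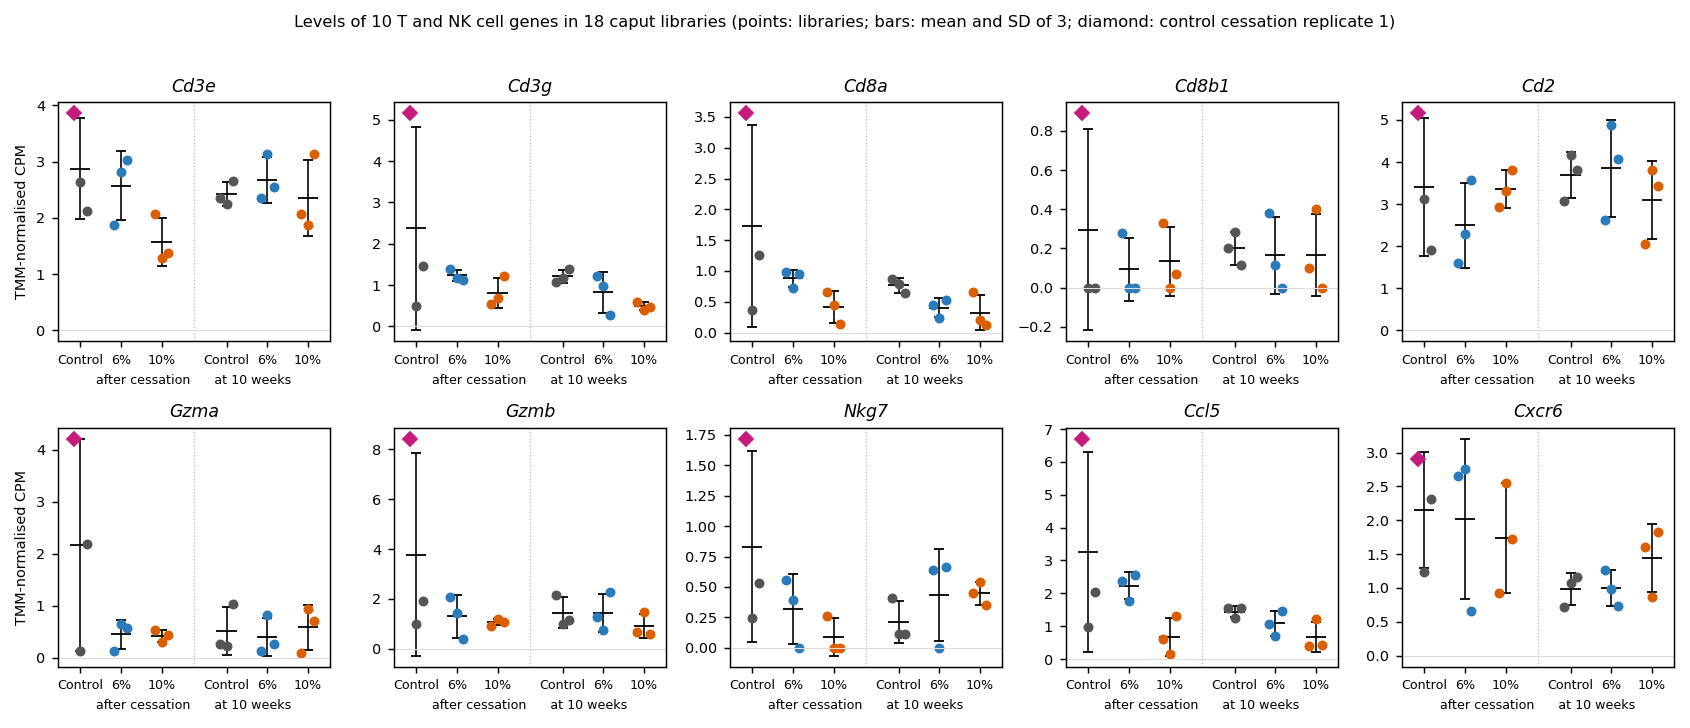
TMM-normalised CPM of each of the 10 genes in the 18 libraries, with groups after cessation on the left and at 10 weeks on the right of each panel; points are libraries, bars the mean and SD of 3, and the diamond is control cessation replicate 1. The diamond is the highest point in all 10 panels, from 0.89 CPM for Cd8b1 to 8.43 CPM for Gzmb.

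Cd3e and Cd3g encode CD3 chains that carry the signal of the T cell receptor. After cessation, Cd3e had 3.86, 2.64 and 2.12 CPM in controls, 1.88, 2.82 and 3.02 CPM at 6% EtOH and 2.06, 1.28 and 1.37 CPM at 10% EtOH. At 10 weeks it had 2.36, 2.25 and 2.66 CPM in controls, 2.36, 3.14 and 2.54 CPM at 6% EtOH and 2.06, 1.88 and 3.13 CPM at 10% EtOH. Cd3e was thus one of the steadiest of the 10. All 3 libraries of 10% EtOH after cessation lay below all 3 controls, as in 3.97% of all tested genes. Cd3g was more uneven after cessation, with 5.16, 0.491 and 1.46 CPM in controls, 1.39, 1.18 and 1.13 CPM at 6% EtOH and 0.531, 0.676 and 1.23 CPM at 10% EtOH. At 10 weeks Cd3g had 1.08, 1.18 and 1.39 CPM in controls, 1.21, 0.987 and 0.267 CPM at 6% EtOH and 0.603, 0.403 and 0.472 CPM at 10% EtOH. The highest Cd3g library, a control, was 4.79 times the median of the other 17, against 1.64 times for Cd3e.

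Cd8a and Cd8b1 encode the CD8 coreceptor of cytotoxic T cells. After cessation, Cd8a had 3.56, 0.368 and 1.26 CPM in controls, 0.975, 0.723 and 0.943 CPM at 6% EtOH and 0.664, 0.451 and 0.144 CPM at 10% EtOH. At 10 weeks Cd8a had 0.873, 0.788 and 0.636 CPM in controls, 0.446, 0.232 and 0.534 CPM at 6% EtOH and 0.653, 0.201 and 0.118 CPM at 10% EtOH. Control cessation replicate 1 held 60 of the 217 Cd8a counts, 5.6 times the median CPM of the other 17 libraries. Cd8b1 was at the edge of detection. It had 15, 0 and 0 counts in controls, 4, 0 and 0 at 6% EtOH and 5, 0 and 1 at 10% EtOH after cessation. At 10 weeks Cd8b1 had 4, 5 and 2 counts in controls, 6, 2 and 0 at 6% EtOH and 2, 6 and 0 at 10% EtOH. It was at 0 in 7 libraries and summed to 52 counts, with 28.8% of them in the 1 control library.

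Cd2 encodes an adhesion receptor of T and NK cells that binds CD48 in the mouse. Its level after cessation was 5.16, 3.13 and 1.92 CPM in controls, 1.60, 2.30 and 3.58 CPM at 6% EtOH and 2.92, 3.31 and 3.82 CPM at 10% EtOH. At 10 weeks Cd2 had 3.08, 4.17 and 3.82 CPM in controls, 2.61, 4.88 and 4.07 CPM at 6% EtOH and 2.06, 3.82 and 3.42 CPM at 10% EtOH. The groups overlapped at both times, and the highest library was 1.56 times the median of the others, the smallest such ratio of the 10 genes.

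The granzymes Gzma and Gzmb are serine proteases of the cytotoxic granule. After cessation Gzma had 4.21, 0.123 and 2.18 CPM in controls, 0.139, 0.657 and 0.566 CPM at 6% EtOH and 0.531, 0.301 and 0.433 CPM at 10% EtOH. At 10 weeks Gzma had 0.257, 0.225 and 1.04 CPM in controls, 0.127, 0.813 and 0.267 CPM at 6% EtOH and 0.100, 0.939 and 0.708 CPM at 10% EtOH. Its 2 highest libraries were controls after cessation, and the same group held one of its lowest. Gzmb had 8.43, 0.982 and 1.92 CPM in controls, 2.09, 1.45 and 0.377 CPM at 6% EtOH and 0.929, 1.20 and 1.08 CPM at 10% EtOH after cessation. At 10 weeks Gzmb had 2.16, 1.01 and 1.16 CPM in controls, 1.27, 0.755 and 2.27 CPM at 6% EtOH and 0.653, 1.48 and 0.590 CPM at 10% EtOH. The ratio of control cessation replicate 1 to the median of the others was 9.74 for Gzma, the largest of the 10 genes, and 7.29 for Gzmb.

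Nkg7 encodes a membrane protein of the granule that promotes its release. After cessation Nkg7 had 1.72, 0.245 and 0.529 CPM in controls, 0.557, 0.394 and 0 CPM at 6% EtOH and 0.265, 0 and 0 CPM at 10% EtOH. At 10 weeks Nkg7 had 0.411, 0.113 and 0.116 CPM in controls, 0.637, 0 and 0.668 CPM at 6% EtOH and 0.452, 0.537 and 0.354 CPM at 10% EtOH. With 114 counts in all and 4 libraries at 0, Nkg7 was the least counted of the 9 tested genes.

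Ccl5 is a chemokine secreted by activated T and NK cells, and Cxcr6 is the receptor for the chemokine Cxcl16 on tissue-resident lymphocytes. After cessation Ccl5 had 6.71, 0.982 and 2.05 CPM in controls, 2.37, 1.77 and 2.55 CPM at 6% EtOH and 0.597, 0.150 and 1.30 CPM at 10% EtOH. At 10 weeks Ccl5 had 1.54, 1.24 and 1.56 CPM in controls, 1.08, 0.697 and 1.47 CPM at 6% EtOH and 0.402, 1.21 and 0.413 CPM at 10% EtOH. The 2 lowest Ccl5 values at each time were in 10% EtOH libraries. At 10 weeks all 3 libraries of 10% EtOH lay below all 3 controls, as in 15.5% of all tested genes. Cxcr6 had 2.91, 1.23 and 2.32 CPM in controls, 2.65, 2.76 and 0.660 CPM at 6% EtOH and 0.929, 2.55 and 1.73 CPM at 10% EtOH after cessation. At 10 weeks Cxcr6 had 0.719, 1.07 and 1.16 CPM in controls, 1.27, 0.987 and 0.734 CPM at 6% EtOH and 1.61, 0.872 and 1.83 CPM at 10% EtOH. All 3 controls after cessation lay above all 3 controls at 10 weeks for Cxcr6, as in 12% of all tested genes. The nearest values were 1.23 CPM in control cessation replicate 2 and 1.16 CPM in control 10 weeks replicate 3, with 20 counts each.

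Ordered by mean level, control cessation was the highest of the 6 groups for 9 of the 10 genes. Those means include control cessation replicate 1, the highest library for all 10 genes. Only Cd2 had another highest group, 6% EtOH at 10 weeks. For 9 genes every pair of neighbouring groups in that order overlapped (5 of 5 pairs), and for Ccl5 4 of 5 did. The exception was 6% EtOH after cessation above the controls at 10 weeks. Ccl5 averaged 2.23 ± 0.405 CPM in 6% EtOH after cessation and 1.45 ± 0.181 CPM in controls at 10 weeks (SD, n = 3 each). The controls after cessation had SDs near their means for several genes, with Gzmb at 3.78 ± 4.06 CPM, Ccl5 at 3.25 ± 3.04 CPM, Cd3g at 2.37 ± 2.47 CPM and Gzma at 2.17 ± 2.05 CPM (SD, n = 3). The SD was well below the mean for Cd2 at 3.40 ± 1.64 CPM, Cd3e at 2.87 ± 0.894 CPM and Cxcr6 at 2.15 ± 0.853 CPM. The order of the groups without control cessation replicate 1 is not given here, nor is a share over all genes.

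The effect of the higher dose after cessation was asked by setting 10% EtOH against control at that time. No member passed the threshold, an adjusted p under 0.05 in edgeR's quasi-likelihood test over all genes. Among all tested genes 0.0% were called in this comparison, and DESeq2 and limma-voom also called 0 members. Fitted differences of all 9 tested members lay below 0, with a median log2 fold change of -1.82, while the median of all genes was -0.02. An unadjusted p under 0.05 was reached by 7 of the 9, all lower in 10% EtOH, where 5.07% of all genes were lower at that level. Ccl5 had the smallest p, with a log2 fold change of -2.24 ± 0.68 (SE; unadjusted p = 0.00417, adjusted p = 0.743 with edgeR). The others at that level were Nkg7 at -3.07 ± 1.26, Gzma at -2.34 ± 0.98, Cd8a at -2.02 ± 0.74, Gzmb at -1.82 ± 0.70, Cd3g at -1.54 ± 0.65 and Cd3e at -0.87 ± 0.34. Cxcr6 was at -0.31 ± 0.51 and Cd2 at -0.03 ± 0.38. Cd3e was the member whose groups did not overlap, as in 3.97% of all genes that were lower in this way. Below 0 in the same comparison were also 11 of 13 macrophage genes (median -0.47), 8 of 9 dendritic cell genes (-0.30) and 11 of 14 immediate early genes (-0.37), and 0 of these were called. Pan-leukocyte genes had a median of -0.06, with 8 below 0 and 3 above. Of 5 tested B and plasma cell genes, 4 lay above 0 (median 0.95). The part of these lists in the values of the T and NK genes was not tested.

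These differences rested in large part on 1 control library. Without control cessation replicate 1, the median over the 9 members was -0.60, and 0 of 9 had an unadjusted p under 0.05 in edgeR's test. Differences below 0 remained for 8 of the 9. Ccl5 was then at -1.14 ± 0.65 (adjusted p = 0.92 with edgeR), Gzmb at -0.43 ± 0.64, Cd3g at -0.26 ± 0.61, Cd3e at -0.60 ± 0.37 and Cd2 at 0.40 ± 0.40. With no filter on low counts Ccl5 passed in edgeR's test, at -2.22 and an adjusted p of 0.00938; over all alternatives its adjusted p ranged from 0.00938 to 1.0.

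**Figure D2:**
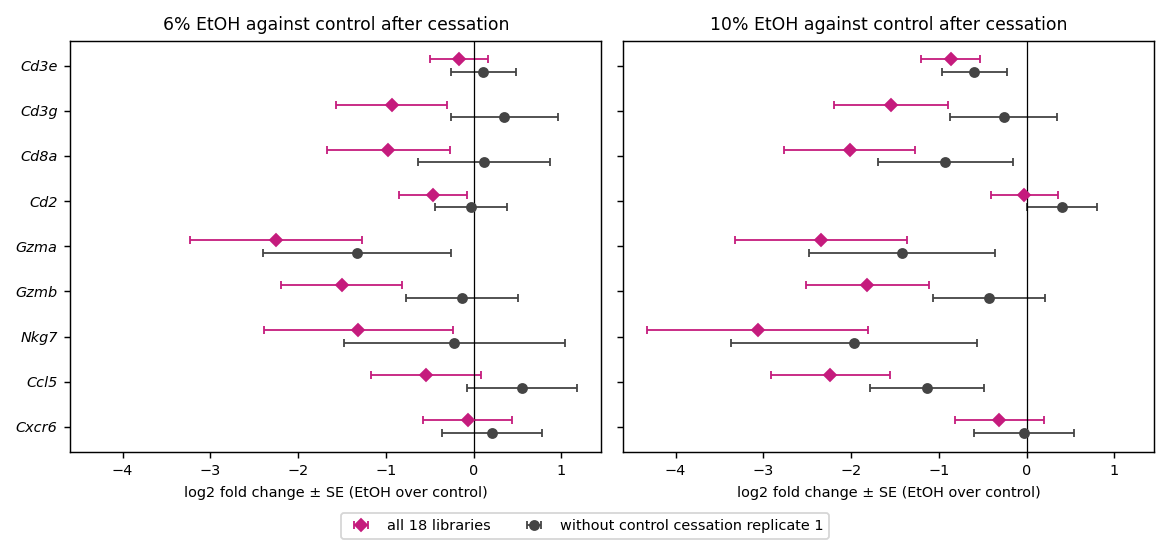
Log2 fold change ± SE of the 9 tested genes for 6% EtOH (left panel) and 10% EtOH (right panel) against control after cessation, with all 18 libraries (diamonds) and without control cessation replicate 1 (circles). For 10% EtOH the median moved to -0.60 without that library, against -1.82 with it.

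For 6% EtOH against control after cessation, the 9 members again lay below 0, with a median of -0.94 against -0.01 for all genes. No member was called by edgeR's test, DESeq2 or limma-voom, and 0.0% of all genes were called. Gzma at -2.25 ± 0.98 and Gzmb at -1.50 ± 0.69 were the 2 with an unadjusted p under 0.05 (0.0341 and 0.0426, adjusted p = 1.0 for both with edgeR). At that level 0.779% of all genes were lower. Without control cessation replicate 1 the median was 0.11, with 4 members below 0 and 5 above, and 0 had an unadjusted p under 0.05. Gzma was then at -1.33 ± 1.07 and Gzmb at -0.13 ± 0.64. Both doses were set against the same 3 control libraries.

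The doses themselves can be compared without those controls. In 10% against 6% EtOH after cessation, 0 members were called by edgeR's test, DESeq2 or limma-voom (0.0% of all genes by edgeR), and the median was -0.61. Ccl5 averaged 0.682 ± 0.578 CPM in 10% EtOH and 2.23 ± 0.405 CPM in 6% EtOH (SD, n = 3 each), a log2 fold change of -1.69 ± 0.69 (unadjusted p = 0.0244, adjusted p = 0.634 with edgeR). It was the 1 member with an unadjusted p under 0.05, which 5.24% of all genes reached in that direction. Ccl5 and Cd8a were lower with no overlap between the groups, as were 5.42% of all genes. Other markers differed in the same comparison: all 9 tested adipocyte genes (median -1.34), all 5 red blood cell genes (-1.03) and 13 of 14 immediate early genes (-0.72) lay below 0, 6 of the last with an unadjusted p under 0.05. Their part in the values of the T and NK genes was not tested. Cd8a averaged 0.420 ± 0.261 CPM in 10% EtOH and 0.880 ± 0.137 CPM in 6% EtOH, a log2 fold change of -1.04 ± 0.76.

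At 10 weeks, 10% EtOH against control gave a median of -0.25 over the 9 members, against -0.01 for all genes. No member was called by edgeR's test, DESeq2 or limma-voom, and 0.0% of all genes were called by edgeR. An unadjusted p under 0.05 was reached by 0 of the 9, and by 13.4% of all genes. Cd3g averaged 0.492 ± 0.102 CPM in 10% EtOH and 1.22 ± 0.158 CPM in controls (SD, n = 3 each), and Ccl5 0.674 ± 0.462 CPM in 10% EtOH and 1.45 ± 0.181 CPM in controls. These 2 were lower with no overlap, as were 15.5% of all genes, with log2 fold changes of -1.28 ± 0.68 and -1.12 ± 0.68 (adjusted p = 0.413 and 0.476 with edgeR). Cd8a was at -1.18 ± 0.75, and Cxcr6 and Nkg7 lay on the other side of 0, at 0.55 ± 0.52 and 1.02 ± 1.12. Other lists moved with the same comparison. Of caput epithelial genes 10 of 11 lay above 0 with a median of 0.57. Their sums were 89400 to 112000 CPM in 10% EtOH and 67200 to 74100 CPM in controls. All 11 tested pan-leukocyte genes (median 0.73), 13 macrophage genes (0.41) and 5 tested B and plasma cell genes (1.02) lay above 0, and 7 of 9 dendritic cell genes (-0.41) below. The pan-leukocyte sum was 355 CPM in 10% EtOH 10 weeks replicate 3, a library of doubtful identity, and 216 and 242 CPM in replicates 1 and 2. The B and plasma cell sum was 28.3 CPM in replicate 3. In replicates 1 and 2 it was 7.23 and 9.19 CPM, inside the 6.01 to 9.19 CPM of controls. Macrophage sums were 282, 335 and 433 CPM in replicates 1, 2 and 3 and 228 to 256 CPM in controls. The part of these lists in the values of the T and NK genes was not tested.

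At the lower dose after 10 weeks, 6% EtOH against control, the median was -0.02, and 0 members were called or had an unadjusted p under 0.05 in edgeR's test, with 0 called by DESeq2 and limma-voom. Of all genes 0.0% were called by edgeR and 2.36% had an unadjusted p under 0.05. Cd8a averaged 0.404 ± 0.155 CPM in 6% EtOH and 0.766 ± 0.120 CPM in controls (SD, n = 3 each). It was lower with no overlap, as were 9.0% of all genes, at -0.92 ± 0.75 (adjusted p = 1.0 with edgeR). In 10% against 6% EtOH at 10 weeks the median was -0.26, 0 members were called by edgeR's test (0.0% of all genes), DESeq2 or limma-voom, and 0 had an unadjusted p under 0.05, as 2.83% of all genes did.

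Whether the dose effects differed between the times was tested as an interaction. No member was called for either dose by edgeR's test, DESeq2 or limma-voom (0.0% of all genes for each dose by edgeR). For 10% EtOH the effect after cessation minus that at 10 weeks had a median of -0.87, and -0.02 without control cessation replicate 1. Nkg7 was at -4.09 ± 1.69 (unadjusted p = 0.0264, adjusted p = 0.645 with edgeR), the 1 member with an unadjusted p under 0.05, where 3.79% of all genes were lower at that level. Its 10% EtOH libraries held 4 counts after cessation and 23 at 10 weeks, against 41 and 12 in the controls of those times, so the fitted value rests on very few reads. For 6% EtOH the median was -0.38, and 0 members had an unadjusted p under 0.05, which 3.01% of all genes had. Without both libraries of doubtful identity 0 members were called by edgeR's test in any of the 10 comparisons, with 0 to 7 of 9 at an unadjusted p under 0.05, and the medians were -1.82 (10% EtOH) and -1.03 (6% EtOH) against control after cessation, and -0.34 and -0.02 at 10 weeks.

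The controls of both times were compared next. The 9 members had a median log2 fold change of 1.16 in controls after cessation against controls at 10 weeks, with 8 above 0, where all genes had a median of 0.05. No member was called by edgeR's test, DESeq2 or limma-voom, against 0.118% of all genes by edgeR. Gzma at 2.09 ± 0.95 and Cxcr6 at 1.13 ± 0.52 had an unadjusted p under 0.05 (0.0404 and 0.0425, adjusted p = 0.227 and 0.231 with edgeR), where 12.1% of all genes were higher at that level. Cxcr6 was higher with no overlap, as were 12% of all genes. Without control cessation replicate 1 the median was 0.06, Cxcr6 was at 0.84 ± 0.58 and Gzma at 1.17 ± 1.04. Without control cessation replicate 2, Gzma passed at 2.64 (adjusted p = 0.0384 with edgeR).

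Over all 3 treatments, the mean difference between cessation and 10 weeks had a median of 0.60 for the members and 0.05 for all genes, and 0.29 for the members without control cessation replicate 1. No member was called by edgeR's test or limma-voom, while 17.9% of all genes were called by edgeR. Cxcr6 came nearest, at 0.81 ± 0.30 (unadjusted p = 0.0146, adjusted p = 0.0656 with edgeR), and was called by DESeq2 at 0.81 (adjusted p = 0.0448). It was the 1 member with an unadjusted p under 0.05, which 20.7% of all genes reached in that direction. Cd8a at 0.87 ± 0.43, Cd3g at 0.75 ± 0.38 and Ccl5 at 0.75 ± 0.39 had adjusted p-values of 0.153, 0.164 and 0.168 with edgeR. Cxcr6 passed in edgeR's test without control cessation replicate 2, 6% EtOH cessation replicate 3 or 10% EtOH cessation replicate 1 (0.90 to 0.93, adjusted p = 0.027 to 0.0348), and Cd3g passed without control cessation replicate 2 (0.90, adjusted p = 0.043). Immediate early genes moved with the time of collection, with 13 of 14 called higher, 1 called lower and sums of 879 to 2440 CPM after cessation against 510 to 692 CPM at 10 weeks. Of 11 caput epithelial genes 3 were called lower, with sums of 33500 to 84400 CPM after cessation against 67200 to 112000 CPM at 10 weeks. The part of either list in the T and NK gene values was not tested.

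In control cessation replicate 1 the whole T cell receptor set was examined beside the members. Of 30 other genes of the T cell receptor and its signalling, 14 were highest there. The CD3 chains Cd3d and Cd247 had 1.72 and 1.19 CPM in that library, against at most 1.12 and 0.975 CPM in the other 17. The alpha chain constant region gene Trac had 2.73 CPM, against 0.0751 to 1.30 CPM elsewhere. Trbc1 of the beta chain, which did not pass the low-count filter, had 1.84 CPM, against at most 0.836 CPM. Trbc2, also of the beta chain and tested, was not highest there, at 1.96 CPM against 0.225 to 2.25 CPM elsewhere. Trdc, the constant region of the delta chain carried by gamma-delta T cells, lay inside the range of the others, at 0.178 CPM in that library and 0.0657 to 1.31 CPM elsewhere. The coreceptor of helper T cells, Cd4, had 5.34 CPM there and 0.382 to 2.25 CPM elsewhere, and macrophages can also express it.

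Among 24 other NK and cytotoxic genes, 9 were highest in the same library. The summed levels of both lists lay inside the range of the other 17 libraries. They were 275 CPM against 206 to 345 CPM for the T cell receptor list and 267 CPM against 102 to 645 CPM for the NK list. These sums were made up mostly of a few abundant genes. In that library Klrb1c alone had 241 CPM of the NK sum. Tcf7 had 131 CPM, Skap1 35.0 CPM and Zap70 25.7 CPM of the T cell receptor sum. The sums therefore say little about the low genes of either list. The 9 genes included Klrk1, an activating receptor, at 4.69 CPM against 0.123 to 1.43 CPM elsewhere, and Xcl1, a chemokine of activated T and NK cells, at 2.08 CPM against at most 1.26 CPM. Il2rb, a chain of the receptors for interleukins 2 and 15, had 5.88 CPM there and 0.944 to 4.83 CPM elsewhere. Ncr1, a receptor largely confined to NK cells, was at 0.653 CPM, inside the range of 0 to 0.794 CPM of the others. Prf1, the pore-forming perforin, had 0.237 CPM against at most 0.347 CPM, and Ifng, the gene of interferon gamma, 0.119 CPM against at most 0.397 CPM; both were too low to test.

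Genes of some other cell types were also high in control cessation replicate 1, and those of others were not. Of 13 macrophage genes 9 were highest there, and their sum was 622 CPM, against 228 to 502 CPM in the other 17 libraries. The 9 dendritic cell genes summed to 33.1 CPM against 14.3 to 31.9 CPM. Of 12 pan-leukocyte genes 3 were highest there. Their sum of 292 CPM lay inside the range of the others, 168 to 355 CPM, and Cd52 made up 98.5 CPM of it. Sums of 12 B and plasma cell genes (17.6 CPM, against 6.01 to 43.5 CPM), 6 red blood cell genes (139 CPM, against 15.7 to 167 CPM), 11 adipocyte genes (47.2 CPM, against 37.9 to 104 CPM) and 11 caput epithelial genes (61400 CPM, against 33500 to 112000 CPM) lay inside the range of the others. The part of these cell types in the T and NK gene levels was not tested.

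Across the 18 libraries the members went together mainly through the same library. The 45 pairs of members had a median Pearson r of 0.388 on the log2(CPM + 0.5) scale, with 16 pairs over 0.5, and without control cessation replicate 1 the median was 0.0841 with 3 pairs over 0.5. The pairs highest over 18 libraries were Gzmb with Nkg7 (0.777, and 0.583 over the other 17), Cd3g with Cd8a (0.764 and 0.474), Cd3g with Ccl5 (0.753 and 0.534) and Cd8a with Ccl5 (0.749 and 0.532). Cd2 and Cxcr6 went in opposite directions, at -0.377 over 18 libraries and -0.625 over 17. Over the 17, r of Cd2 was also below 0 with Nkg7 (-0.561), Cd8a (-0.557), Gzmb (-0.307), Cd3g (-0.287), Ccl5 (-0.2) and Cd8b1 (-0.0424). It was above 0 with Cd3e (0.196) and Gzma (0.0936). Over all 18, r of Cd2 was below 0 with Cxcr6, Nkg7 (-0.15) and Cd8a (-0.0609) only. The points share library depth and tissue composition, and these values are descriptions.

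The genes most like the mean of the standardised members over the 18 libraries were Tap1 (r = 0.949), Psmb9 (0.94), Psmb8 (0.926), Irgm2 (0.894), BC023105 (0.889), F830016B08Rik (0.887), Gbp3 (0.879), Tgtp2 (0.879), Zbp1 (0.873) and Igtp (0.872). Tap1 encodes part of the transporter that loads peptides for class I molecules, Psmb8 and Psmb9 encode subunits of the immunoproteasome, and Irgm2, Igtp, Tgtp2 and Gbp3 encode GTPases induced by interferons. In control cessation replicate 1, Tap1 had 81.7 CPM against 17.9 to 33.9 CPM in the other 17 libraries. Psmb9 had 38.1 CPM there against 4.57 to 11.9 CPM, Igtp 74.6 CPM against 12 to 33.4 CPM, and F830016B08Rik 52.5 CPM against 0.255 to 5.36 CPM. Tap1 and Psmb9 overlap on opposite strands, so their reads may be shared. Without that library the r of these 10 genes lay between 0.563 and 0.813, and the genes most like the members were then others, led by Zgpat (0.926), Ptpn23 (0.907) and Tnfrsf21 (0.907).

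**Figure D3:**
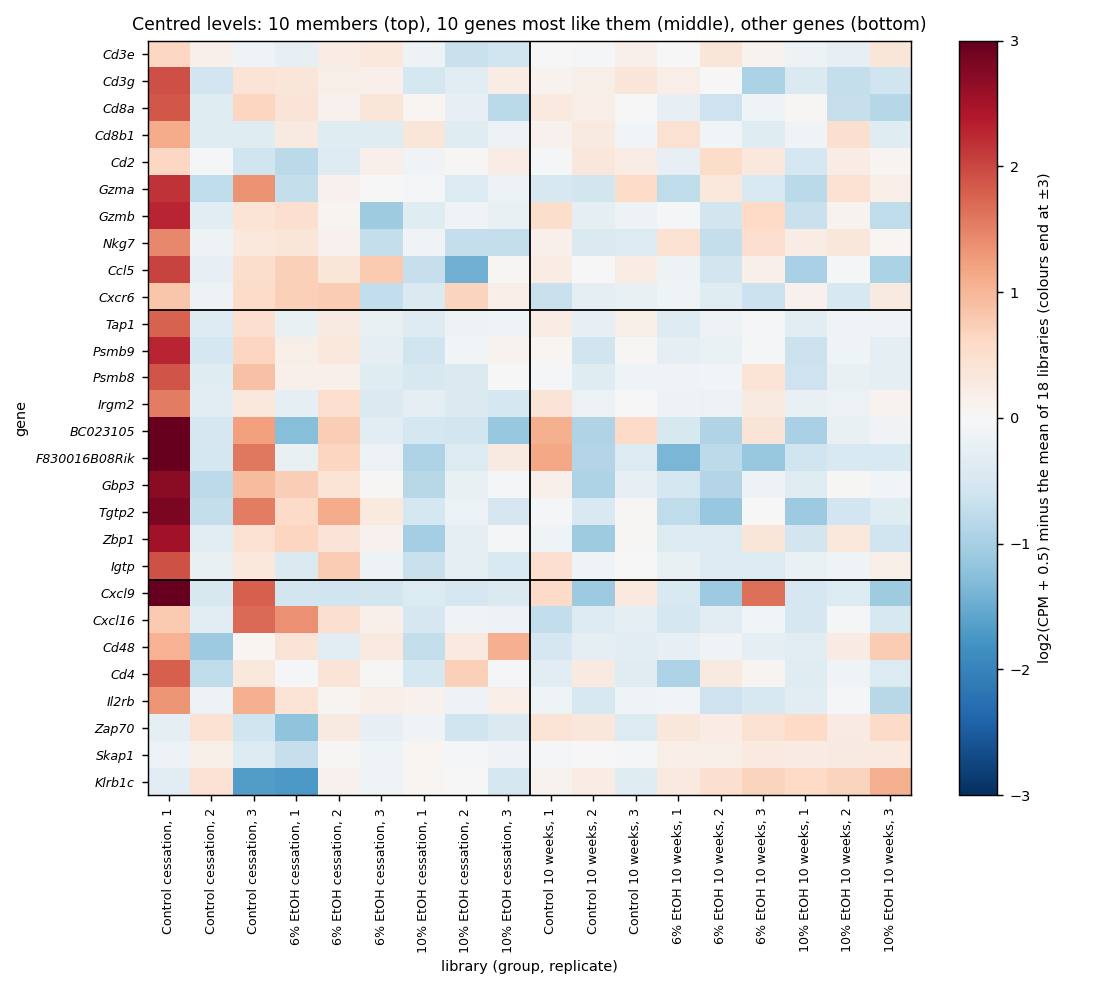
Centred log2(CPM + 0.5) of the 10 genes (top), the 10 genes most like them (middle) and 8 other genes (bottom) in the 18 libraries, with cessation on the left and 10 weeks on the right. The first column, control cessation replicate 1, is the reddest cell of the row for all 10 members and for Tap1 (81.7 CPM) and Igtp (74.6 CPM); Zap70, Skap1 and Klrb1c do not share that column's colour.

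Partners of T and NK cells were followed as a list of 25 chemokines, cytokines, receptors, class I genes, surface ligands and inhibitors of granule proteases, with 22 tested. In the mean difference between cessation and 10 weeks, 8 were called higher and 1 lower by edgeR's test, beside 17.9% of all genes. Cxcl16, the ligand of Cxcr6, rose by 0.88 ± 0.23 on the log2 scale (SE; adjusted p = 0.0223), and Il15, a cytokine that keeps NK and memory T cells alive, by 0.96 ± 0.21 (adjusted p = 0.0133). Cxcl10, which draws activated T cells, rose by 2.12 ± 0.43 (adjusted p = 0.0123), and Ccl3, a chemokine of activated macrophages and lymphocytes, by 1.93 ± 0.46 (adjusted p = 0.0181). Serpinb9, an inhibitor of granzyme B, rose by 0.77 ± 0.16 (adjusted p = 0.0122), and its relative Serpinb6b by 0.70 ± 0.15 (adjusted p = 0.0138). Cxcl16 was highest in the libraries with low caput epithelial genes, at 36.9 CPM in control cessation replicate 3 and 29.0 CPM in 6% EtOH cessation replicate 1, with 19.1 CPM in control cessation replicate 1, and Serpinb6b was highest in control cessation replicate 3, at 38.5 CPM. The part of that difference between libraries was not tested. Leaving out control cessation replicate 1 or 6% EtOH cessation replicate 1 gave 6 called higher and 1 lower each, and leaving out control cessation replicate 3 gave 8 and 0. The share of all genes called in each of these refits is not given here. Cxcl9, a chemokine induced by interferon gamma, had 21.5 CPM in control cessation replicate 1 and 0.225 to 4.89 CPM in the other 17 libraries.

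Genes of lymphocyte residence and traffic were compared between the times as another list. In the mean over the treatments, 7 of 14 tested genes were called higher after cessation and 0 lower by edgeR's test, beside 17.9% of all genes called in either direction. Rgs1, a regulator of chemokine receptor signalling, rose by 3.59 ± 0.41 (SE; adjusted p = 8.26e-05 with edgeR). Il7r, the interleukin 7 receptor, rose by 1.67 ± 0.42 (adjusted p = 0.0208), S1pr1, which guides exit from tissue, by 1.61 ± 0.38 (adjusted p = 0.0182). The integrin genes Itga1 and Itgae rose by 0.70 ± 0.18 and 0.65 ± 0.18 (adjusted p = 0.0223 and 0.0288), and Rora, a transcription factor of innate lymphoid cells among others, by 0.40 ± 0.12 (adjusted p = 0.0311). Many of these genes are also used by other cells of the tissue, as S1pr1 is by endothelium. Several were highest in the libraries with low caput epithelial genes, control cessation replicate 3 and 6% EtOH cessation replicate 1: Itgae had 62.1 and 45.8 CPM there, Itga1 48.1 and 55.4 CPM, Rora 54.7 and 47.6 CPM, and S1pr1 16.3 and 18 CPM. The part of that difference between libraries in the calls was not tested. The count was 6 without control cessation replicate 1, 5 without control cessation replicate 3, 2 without 6% EtOH cessation replicate 1 and 3 without both libraries of doubtful identity. Calls over all genes in this comparison also varied, from 850 to 5811 over the alternatives. The share of all genes in each refit is not given here, so these counts cannot be set against it.

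In the T cell receptor list, 2 of 23 tested genes were called higher after cessation and 2 lower by edgeR's test, a share near the 17.9% of all genes called in either direction. Thy1, a surface protein of T cells and some stromal cells, rose by 1.16 ± 0.29 (adjusted p = 0.0201) and Trbc2 by 1.16 ± 0.35 (adjusted p = 0.0345). The signalling genes Zap70 and Skap1 fell by 0.57 ± 0.18 and 0.28 ± 0.09 (adjusted p = 0.0448 and 0.0474 with edgeR). Without control cessation replicate 1 the counts were 1 higher and 0 lower, and without the libraries of doubtful identity 0 and 0. For these refits too, the share of all genes called is not given here. Of 10 tested NK and cytotoxic genes, Il2rb rose by 0.88 ± 0.24 (adjusted p = 0.0241 with edgeR), a call that was lost without control cessation replicate 1. In 10% EtOH against control after cessation, 17 of 23 T cell receptor genes, 8 of 10 NK and cytotoxic genes, 12 of 14 residence genes and 20 of 22 ligands and inhibitors lay below 0. An unadjusted p under 0.05 was reached by 3, 2, 4 and 11 of these lists' genes in edgeR's test, beside 6.66% of all genes, and 0 were called there, by DESeq2 or by limma-voom. These counts use the same 3 controls, replicate 1 among them.

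Some genes named for lymphocytes followed the caput epithelial genes in level across the libraries. Klrb1c, the gene of the NK1.1 antigen in C57BL/6 mice, had 91.8 to 635 CPM over the 18 libraries. Its level per kilobase of exon had a median of 112 CPM per kb, against 1.93 CPM per kb for Cd2. Over 18 libraries, on log2 scales, the Pearson r of Klrb1c with the summed caput epithelial genes was 0.968. With Cd3e, r was 0.263 for Klrb1c and 0.365 for Zap70, inside the span of -0.117 (Cxcr6) to 0.462 (Ccl5) over the other 9 members. The corresponding r with the epithelial sum was 0.913 for Skap1, 0.794 for Lat and 0.762 for Zap70. Tcf7, an abundant gene of the T cell receptor list, did not follow that sum, at -0.359. Among the members r with the epithelial sum lay between -0.524 (Cd3g and Cd8a) and 0.559 (Cd2). Klrb1c overlaps the gene model Gm44511 on the same strand and Zap70 overlaps Gm18828 on the opposite strand. These correlations are descriptions over libraries that share depth and composition.

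**Figure D4:**
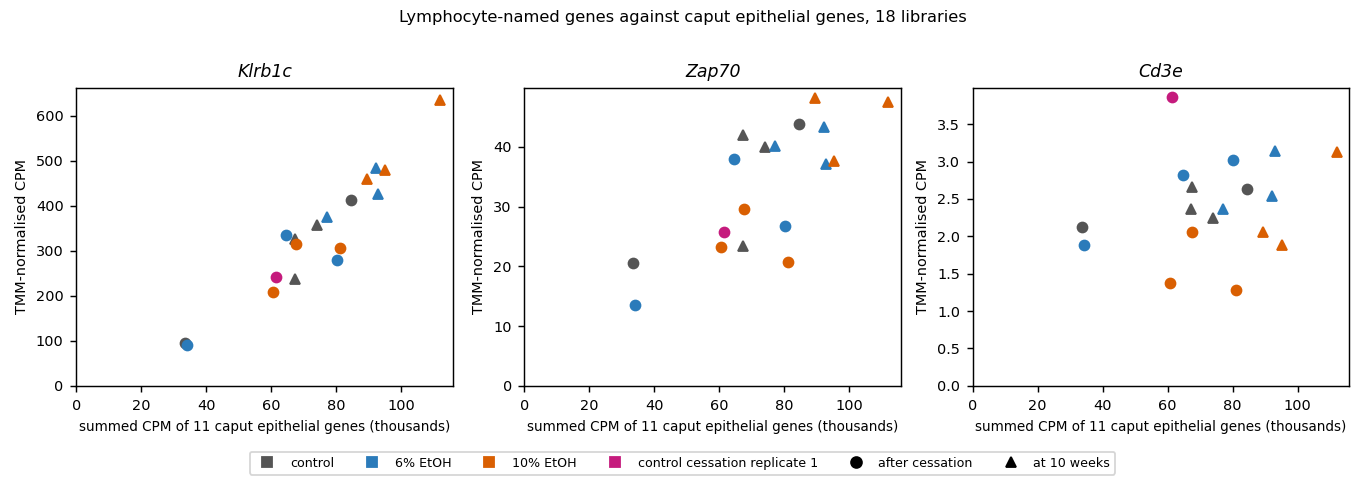
TMM-normalised CPM of Klrb1c, Zap70 and Cd3e (vertical axes) against the summed CPM of 11 caput epithelial genes (horizontal axis) in the 18 libraries; colours are treatments, and circles and triangles the times. Klrb1c follows the epithelial sum closely (r = 0.968 on log2 scales), Zap70 less so (0.762), and Cd3e hardly (0.226).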

How the data were processed

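Per the submitters' processing notes, Trimmomatic, STAR, featureCounts and the mouse build GRCm39 (mm39) were used. Versions, annotation, strand setting and how mates were counted are not stated in the labels. Total RNA came from a column kit (Qiagen RNeasy), per the labels' protocols. The authors deposited whole-number read counts per gene, 1 table per library with the same 53819 entries, and no entry lacked a gene name. Groups came from the sample titles, with 3 libraries in each of 6 groups, and replicate numbers follow the order of deposit.

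The low-count filter was filterByExpr of edgeR, by group, at a minimum count of 10 and a total of at least 15. Counts were TMM-scaled, and each of 10 comparisons was tested with edgeR 4.0.16 (R 4.3.3) in a robust quasi-likelihood fit of all 18 libraries with 1 term per group, two-sided, with Benjamini-Hochberg adjustment over 18618 genes and a threshold of 0.05. Standard errors are those implied by the test. Fits were tested on simulated data first. CPM are TMM-normalised, with a pseudocount of 0.5 for log2 values. Exon lengths and overlaps were taken from a GRCm38 annotation, an earlier build, matched by symbol. A group of 3 libraries limits precision, and counting error comes on top for counts this low.

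The 10 members and all gene lists were chosen with earlier results of these data known. Members were named throughout; of the other lists, genes past the threshold (at most 6 per list and comparison), otherwise the 2 of smallest p. The 10 most alike genes were those of highest Pearson r with the mean standardised member. Genes named for their level in single libraries outside this rule (among them Trac, Trdc, Cd4, Klrk1, Xcl1, Ncr1, Prf1, Ifng, Cxcl9, Klrb1c and Lat) were chosen after their values were seen. Alternatives were DESeq2 1.42.0, limma-voom 3.58.1, DESeq2 size factors in edgeR, no filter, a stricter filter (at least 1 CPM in at least 9 libraries), libraries of 1 time only and each library left out. Counts halved, and both libraries of doubtful identity left out, were added after seeing the data.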

Additional observations from a re-analysis of the deposited data

How the results depend on the processing

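Over the alternatives, 2157 of 2235 values of single members kept their direction and their side of the threshold, 71 changed sign without passing it in either fit, 7 passed it and 0 reversed as called values. The passing ones were Ccl5 in 10% EtOH against control after cessation with no low-count filter (-2.22, 1 member called), Cxcr6 in the mean time difference with DESeq2 (0.81, 1 member called), and calls with 1 library left out: Gzma in the controls' time difference (0 to 1 called), and Cxcr6 and Cd3g in the mean time difference (0 to 2 called). Medians over the tested members moved for 10% EtOH after cessation to -1.2 with the stricter filter, -1.24 with limma-voom and -1.14 with counts halved, and for 6% EtOH after cessation to -0.46 with limma-voom; the cause was not tested. With each library left out they ranged from -2.27 to -0.6 (10% EtOH after cessation), -1.42 to 0.11 (6% EtOH after cessation), -1.31 to -0.02 (10% EtOH interaction) and 0.06 to 1.59 (controls' time difference), with the end nearest 0, or across it, without control cessation replicate 1 in each. Over all genes the calls ranged from 0 to 407 for 10% EtOH against control after cessation, 0 to 51 for 6% EtOH, 0 to 1059 and 0 to 44 at 10 weeks, 0 to 585 and 0 to 60 between the doses after cessation and at 10 weeks, 0 to 385 and 0 to 88 for the interactions, 0 to 2724 for the controls' time difference and 850 to 5811 for the mean one. No paired analysis was possible because the labels give no replicate numbers, and those used here only name libraries. Where a library is at 0, its level may lie anywhere below 0.151 to 0.283 CPM.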

Other observations

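Single markers of B and plasma cells and of macrophages were called between the times. Of 5 tested B and plasma cell genes, 2 were called higher after cessation in the mean over the 3 treatments by edgeR's test: Jchain, which joins antibody units, rose by 2.50 ± 0.69 (SE; adjusted p = 0.0258) and Igkc, the kappa light chain constant region, by 2.25 ± 0.59 (adjusted p = 0.0236). In control cessation replicate 1 the 12 B and plasma cell genes summed to 17.6 CPM, inside the range of 6.01 to 43.5 CPM of the other 17 libraries. Of 13 macrophage genes 3 were called higher after cessation: Cd14, a coreceptor for bacterial lipopolysaccharide, by 1.90 ± 0.31 (adjusted p = 0.00401), Mrc1 by 0.72 ± 0.17 (adjusted p = 0.0175) and Lyz2 by 0.72 ± 0.20 (adjusted p = 0.0298). The 17.9% of all tested genes called in this comparison is the background for these counts, and the macrophage share was near it.

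Summed over the 10 T and NK genes, levels were 8.69 to 11.7 CPM in 10% EtOH and 12.3 to 13.6 CPM in controls at 10 weeks, and 9.76 to 11.2 CPM in 10% EtOH and 10.2 to 42.6 CPM in controls after cessation. In 6% EtOH the sums were 11.4 to 12.8 CPM at 10 weeks and 12.8 to 14.1 CPM after cessation. Sums of 10% EtOH did not overlap those of controls at 10 weeks, nor those of 6% EtOH after cessation. At 10 weeks each part of the sum overlapped. Cd3e with Cd2 had 4.12 to 6.55 CPM in 10% EtOH and 5.44 to 6.48 CPM in controls. The other 8 genes had 4.48 to 6.04 CPM and 5.91 to 7.24 CPM. After cessation the other 8 genes had 4.78 to 5.98 CPM in 10% EtOH and 6.22 to 10.4 CPM in 6% EtOH, while Cd3e with Cd2 overlapped. No test was made of a score over the members, and no share over all genes was computed for such sums.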
